A study of Arabidopsis thaliana with 12 samples.

Results

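Transcripts of 3 Arabidopsis genes for plastid ribosomal proteins, AT5G65220 (L29), AT1G29070 (L34) and AT3G54210 (L17), and of AT1G50000, a member of an rRNA methyltransferase family, were followed on arrays of 3439 probes. Each of the 4 was taken by its own probe, which the platform annotation assigns to that gene alone. The genes were picked with differences between pam48 and the wild type and the brightness of the spots already in view, so their differences between the genotypes are given as a description and carry no test. The samples were 6 of the wild type (WT) and 6 of the pam48 mutant, both in the ecotype Columbia 0. The labels describe pam48 as a mutant with altered photosynthesis that is defective in a protein not named there. They name neither the gene, the allele, the number of lines nor the age and tissue of the plants, so no transcript could be used to check the genotype. The measured material was total RNA of bulk samples, in which fewer cells of a type and less RNA per cell cannot be told apart.

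Plastids make part of their own proteins on ribosomes of bacterial type. Most proteins of these ribosomes are encoded in the nucleus, made in the cytosol and imported, while the ribosomal RNA and the remaining proteins come from the plastid genome. L29, L34 and L17 belong to the large subunit, where L29 and L17 sit near the exit of the tunnel through which the new chain leaves, as known from the ribosome of Escherichia coli. rRNA methyltransferases add methyl groups to ribosomal RNA, a step of ribosome maturation, and neither the labels nor the annotation used here says in which compartment AT1G50000 acts. In leaves, plastid ribosomes are needed above all for the core subunits of the photosystems and for the large subunit of Rubisco.

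Intensities were deposited on a linear scale that ends at 100 in every sample. On that scale WT sample medians lay between 0.0913 and 0.192 and those of pam48 between 0.233 and 0.305, so values were quantile normalised before they were compared. Values below the 5th percentile of a sample's positive intensities were raised to it. This level, called the floor, was chosen here as the limit below which values were not read. No blank or control spot was used to set it, and background below means this floor. All 12 columns were most like the column of the same genotype with the consecutive number (1 with 2, 3 with 4, 5 with 6). These couples are not explained by the labels. Unless a fit that uses the couples is named, the p-values, SDs and SEs below count every column as a sample. They thus measure a spread that may be technical. Of 13 genes listed as marks of green tissue 5 had a probe of their own. PSAN, LHB1B2, PRK and PSBW lay at or above a brightness percentile of 90.5 and SBPASE at 53.2. Of 10 genes listed for seed, root or pollen none had one.

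The probe of AT5G65220, for L29, gave no measurable level in either genotype. Its deposited intensity was exactly 0 in all 6 WT samples and in 4 of 6 pam48 samples. The remaining values were 0.0123 in pam48 2 and 0.00618 in pam48 4, against a floor of 0.0319 and 0.0493 on the deposited scale of those samples. The spot thus lay at the floor in all 12 samples, among 42 of the 3439 probes for which this held and 9 of the 690 probes with a single gene matched to a locus. Its rank in a sample never passed percentile 7.88. After normalisation the WT floors lay between -4.89 and -4.43 (log2) and the pam48 floors between -6.13 and -4.82, and the value of such a probe is the value of the floor. No difference is therefore given for AT5G65220.

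AT1G50000, of the rRNA methyltransferase family, was lower in pam48, and this was the member with the widest gap between the genotypes. Normalised intensity (log2) in WT was lowest at -3.11, had a median of -1.95 and was highest at -1.24. In pam48 it was lowest at -4.97, with a median of -4.22, and highest at -3.51. The 2 groups did not overlap, as was the case for 6.57% of all probes. The means were -2.09 ± 0.74 (SD, n = 6) in WT and -4.28 ± 0.49 (SD, n = 6) in pam48, a difference of -2.19 ± 0.35 (SE of the fit), or 4.56-fold. Of the 3439 probes 10, or 0.291%, had a difference further below 0. The gene was picked with this difference in view, so its place among all probes is a description.

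In pam48 this probe came close to background. It stood between 1.75 and 3.19 (log2) above the floor in the WT samples, but from 0 to 2.56 above it in pam48. Sample pam48 6 was at the floor, with a deposited intensity of 0.0126, and pam48 5 stood 0.613 above it. Raising pam48 6 to the floor narrowed the gap between the genotypes, so the size of the fold depends in part on how low values are treated. The difference was -2.07 when a single floor was used throughout, and with no floor and a pseudocount of 0.05 it was -1.55. A pseudocount added to every value also narrows a difference between dim values.

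AT1G29070, for L34, was lower in pam48 on average, but the samples of the genotypes overlapped. In WT the normalised intensity (log2) ran from -2.72 over a median of -1.35 to -0.84. In pam48 it ran from -3.62 over a median of -2.74 to -1.51. The means were -1.51 ± 0.71 (SD, n = 6) and -2.60 ± 0.78 (SD, n = 6), a difference of -1.09 ± 0.40 (SE). The overlap came from the samples numbered 5 and 6: WT 5 and WT 6 were the lowest of their genotype, and pam48 5 and pam48 6 the highest of theirs. Every sample lay at least 2.18 (log2) above its floor, so none of these values is at background.

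AT3G54210, for L17, was measured far from background, at least 4.57 (log2) above the floor in every sample. In WT it ran from 0.26 over a median of 0.86 to 1.32 (log2). In pam48 it ran from -0.86 over a median of -0.71 to 1.14. Samples pam48 1 to 4 lay below all WT samples, whereas pam48 5 and pam48 6 lay within the range of WT. The means were 0.84 ± 0.42 (SD, n = 6) in WT and -0.14 ± 0.98 (SD, n = 6) in pam48, a difference of -0.98 ± 0.40 (SE). The SD in pam48 was wider than that of 85.3% of probes, or equal to it, and that in WT than 34.2%.

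**Figure D1:**
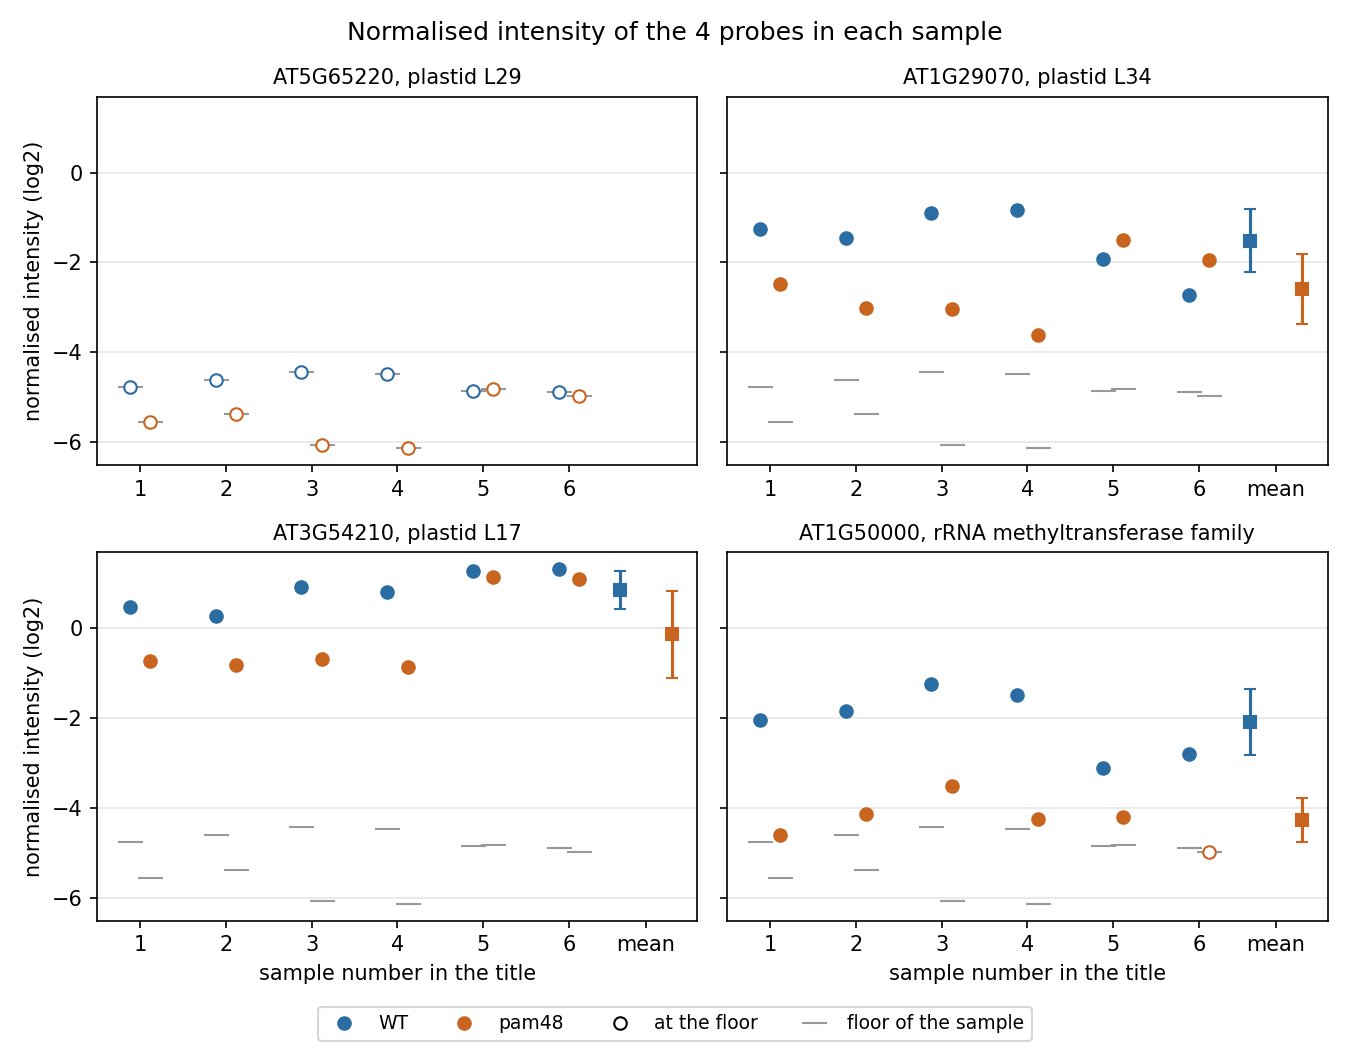
Normalised intensity (log2) of the 4 probes by sample number, WT in blue and pam48 in orange, with open circles at the floor, grey dashes for the floor of each sample, and squares with bars for the mean ± SD of 6 samples. AT5G65220 follows the floor throughout, the genotypes are apart in all 6 numbers for AT1G50000, and for AT1G29070 and AT3G54210 pam48 lies well below WT in numbers 1 to 4 but not in numbers 5 and 6.

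In limma's test over all probes, 16.9% of them passed an adjusted p of 0.05 (Benjamini-Hochberg). The share was 12.8% once the replicate number was added as a block. It was 0.233% in the fit that took consecutive numbers as a random block. Because the members were picked from this comparison, whether they passed is not given for any fit. In the fit with the random block the SE of the difference was 0.56 for AT1G50000, 0.59 for AT1G29070 and 0.45 for AT3G54210. Each was wider than the SE given above.

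The difference was also taken within each couple of consecutive numbers. For AT1G50000 the difference between pam48 and WT (log2) was -2.42 in numbers 1 and 2, -2.51 in 3 and 4, and -1.63 in 5 and 6. It was negative in each couple, and at most 2.62% of all probes had a lower difference in any of them. As the gene was picked with the genotype difference in view, these shares are no test. For AT1G29070 the difference was -1.39 in numbers 1 and 2 and -2.46 in 3 and 4, but 0.59 in 5 and 6. L34 was thus lower in pam48 in the first 2 couples and higher in the last.

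For AT3G54210 the difference was -1.14 in numbers 1 and 2, -1.63 in 3 and 4 and -0.18 in 5 and 6. In the last couple the level of L17 was 1.29 (log2) in WT and 1.12 in pam48, both above the levels of 0.86 and 0.37 in the other WT couples. Over all probes the range between the 25th and the 75th percentile of differences ran from -0.75 to 0.47 in numbers 1 and 2, from -1.18 to 0.71 in 3 and 4 and from -0.36 to 0.37 in 5 and 6. The differences of all 3 genes in the first 2 couples lay below these ranges. In numbers 5 and 6 AT1G50000 lay below, AT3G54210 within and AT1G29070 above the range. The difference of AT1G29070 was -1.93 without numbers 5 and 6, -0.40 ± 0.42 (SE) without 3 and 4, and -0.93 without 1 and 2. That of AT3G54210 was -1.39, -0.66 ± 0.54 (SE) and -0.91 in the same order.

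**Figure D2:**
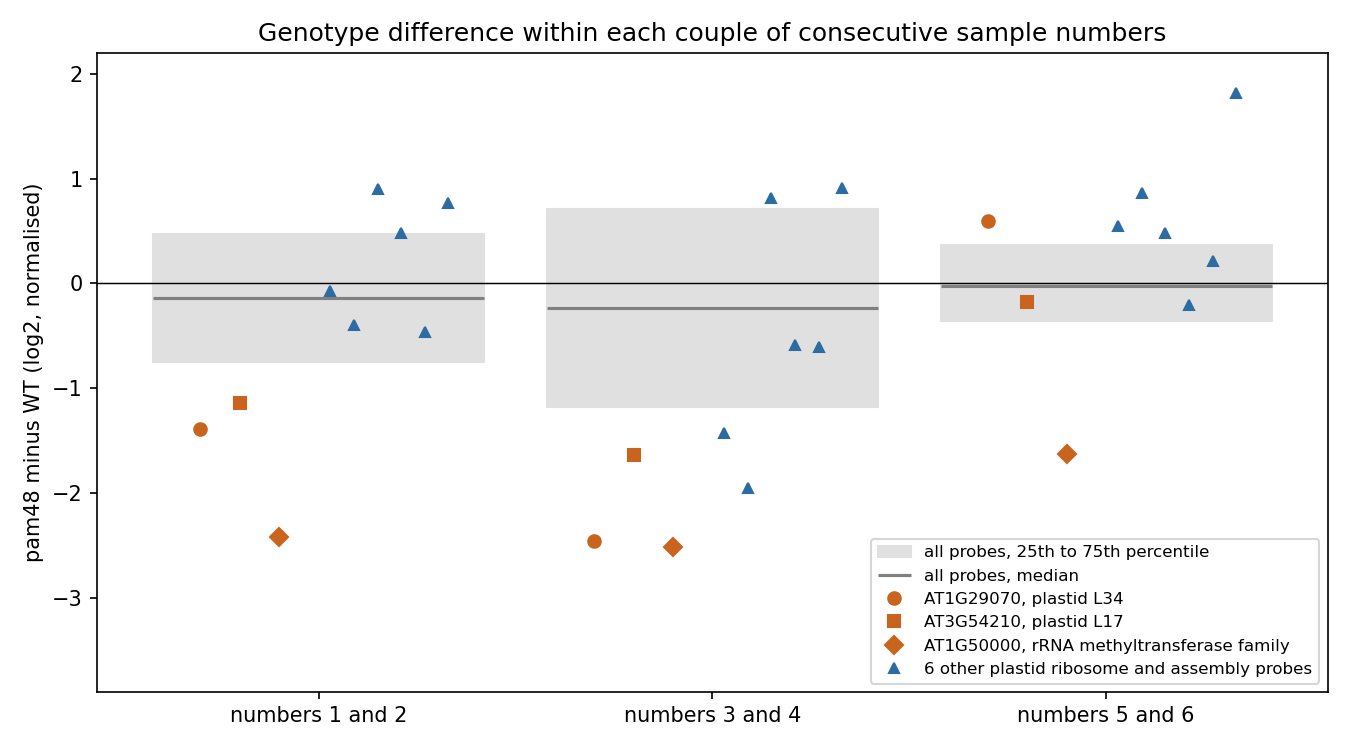
Difference between pam48 and WT (log2, normalised) within each couple of consecutive sample numbers for the 3 members above the floor (orange) and 6 other probes of plastid ribosome and assembly genes (blue triangles), over the range from the 25th to the 75th percentile (grey band) and median (grey line) of all probes. AT1G50000 is below the band in all 3 couples, and AT1G29070 moves from -2.46 in numbers 3 and 4 to 0.59 in numbers 5 and 6.

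Neighbouring columns agreed closely for L17 and less for the dimmer spots. The absolute difference between columns of a couple ran from 0.038 to 0.212 (log2) for AT3G54210, from 0.056 to 0.787 for AT1G29070 and from 0.20 to 0.77 for AT1G50000. For AT3G54210 the means of the pam48 couples were -0.77 in numbers 1 and 2, -0.77 in 3 and 4, and 1.12 in 5 and 6, so that the last couple stood apart from the other two by more than any of these gaps.

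Ranks within a sample, which no scaling of whole samples can alter, were also read. Above the floor the quantile normalised values follow from these ranks. The ranks therefore restate those values and are no separate check on them. AT1G50000 stood between percentiles 33.2 and 73.8 of its sample in WT and between 8.90 and 25.9 in pam48. AT1G29070 stood between 41.6 and 79.7 in WT and between 24.3 and 68.9 in pam48. In numbers 5 and 6 its mean percentile was 50.9 in WT and 64.3 in pam48. AT3G54210 stood between 90.5 and 95.5 in WT and between 79.5 and 94.8 in pam48. These ranks place each spot among the spots of its own sample, and since signal also depends on the probe they do not order the 4 transcripts by abundance.

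**Figure D3:**
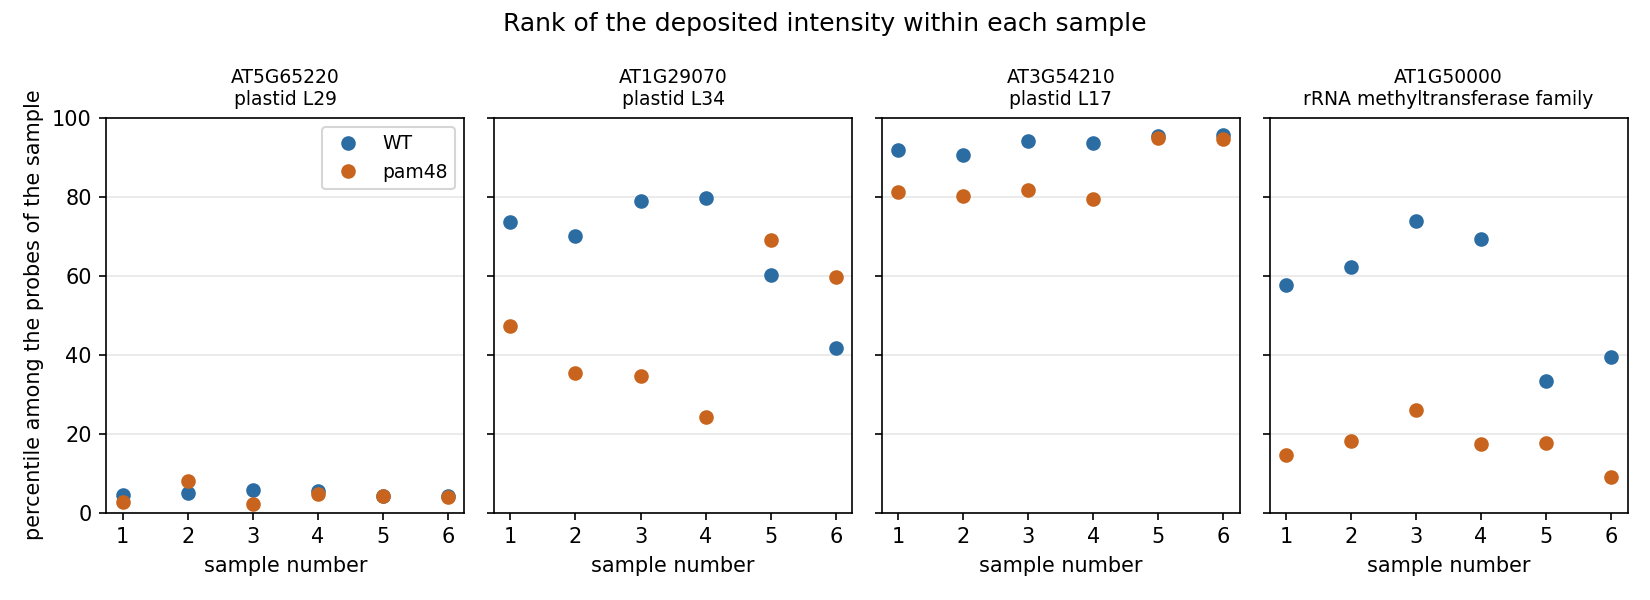
Percentile of the deposited intensity among all probes of the same sample, for each of the 4 probes by sample number, WT in blue and pam48 in orange. AT5G65220 stays below percentile 7.88 or at it, AT1G50000 lies lower in pam48 than in WT at every number, and AT1G29070 changes order at numbers 5 and 6.

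On the values as deposited the members differed less. Mean deposited intensity of AT1G50000 was 0.173 ± 0.062 (SD, n = 6) in WT and 0.0759 ± 0.046 (SD, n = 6) in pam48, with pam48 3 at 0.150 inside the WT range. For AT1G29070 it was 0.277 ± 0.092 (SD, n = 6) against 0.237 ± 0.10 (SD, n = 6). For AT3G54210 it was 1.61 ± 0.53 (SD, n = 6) against 1.18 ± 0.63 (SD, n = 6). On the log2 of these values the differences were -1.19, -0.26 and -0.52 in that order, while the median probe was higher in pam48 by 1.06. Relative to the median probe they were -2.24, -1.31 and -1.57, against -2.05, -0.95 and -0.85 after quantile normalisation.

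**Figure D4:**
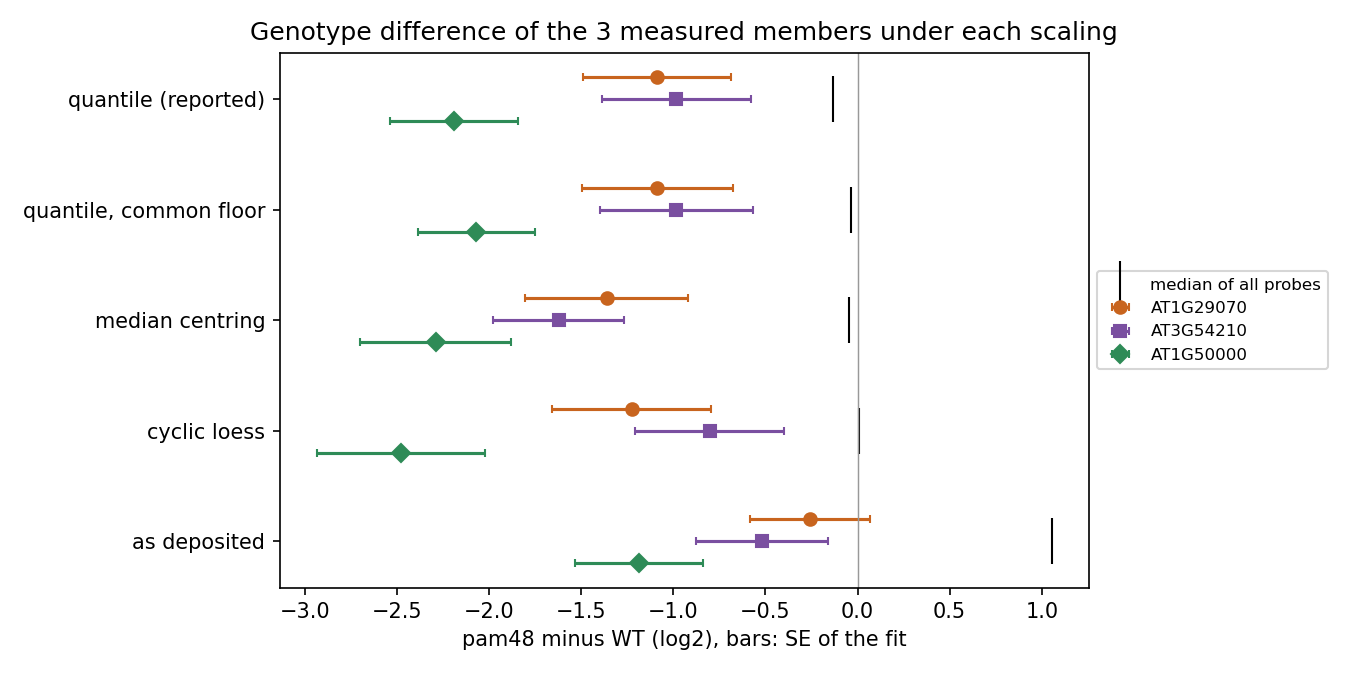
Difference between pam48 and WT (log2, bars give the SE of the fit) of the 3 members above the floor under 5 ways of scaling, with the median of all probes as a black tick. All 3 lie below 0 and below the median in each, and as deposited the median itself stands at 1.06.

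The plastid ribosome as a whole was thinly covered. Of 41 nuclear genes listed for plastid ribosomal proteins 6 had a probe of their own, 3 of them described above. Of 17 listed for plastid ribosome assembly and rRNA processing 3 had one, AT1G50000 among them. It was put on that list for this report, and the annotation used here does not state its compartment. None of 26 plastid-encoded ribosomal protein genes had one, and of 14 plastid translation factors none had, although 6 of these share a probe with another gene. The other 5 genes, with 6 probes, were all above the floor in every sample. None of the 6 probes passed limma's test over all probes, in which 16.9% passed. Their median difference was -0.20 (log2), from -0.50 to 1.17, beside -0.13 over all probes.

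For the 3 ribosomal protein genes among these 5 the differences lay between -0.32 and -0.10 (log2), and the samples of the genotypes overlapped for each. All 3 were positive on the deposited scale, from 0.47 to 0.59, below the 1.06 of the median probe. AT3G13120 gave -0.10 ± 0.24 (log2, SE; limma, adjusted p = 0.79). Its WT mean was -0.42 ± 0.45 (SD, n = 6) and its pam48 mean -0.53 ± 0.22 (SD, n = 6), and the groups overlapped. AT4G01310 gave -0.29 ± 0.21 (limma, adjusted p = 0.35), with the WT samples within -1.49 to -1.29 and pam48 from -2.09 to -1.09. Without numbers 5 and 6 it passed as lower, at -0.54 (limma, adjusted p = 0.023), a fit in which 1527 of all 3439 probes passed. AT1G64510 gave -0.32 ± 0.35 (limma, adjusted p = 0.56), and like AT1G29070 it had its lowest WT values in numbers 5 and 6, with a difference of 0.55 in that couple and -1.42 in numbers 3 and 4.

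Of the other 2 genes, listed for ribosome assembly and rRNA processing, AT5G10910 was higher in pam48 on average and AT2G25870 had no single direction. AT5G10910 gave 1.17 ± 0.40 (log2, SE; limma, adjusted p = 0.061), at -1.95 ± 0.52 (SD, n = 6) in WT and -0.78 ± 0.91 (SD, n = 6) in pam48. It passed with the replicate number as a block (limma, adjusted p = 0.022), a fit in which 12.8% of all probes passed. It also passed on the values as deposited (limma, adjusted p = 0.0069), where 1739 of all 3439 probes did. Without numbers 5 and 6 it passed too (limma, adjusted p = 0.040), where 1527 did. It did not pass with consecutive numbers as a random block (limma, adjusted p = 0.30) or with the replicate block on averaged couples (0.23). Its difference was positive in each couple, at 0.77, 0.91 and 1.82 in order of number. AT2G25870 had 2 probes that disagreed: one gave -0.50 ± 0.39 (limma, adjusted p = 0.40) and the other 0.73 ± 0.25 (limma, adjusted p = 0.058), with no overlap of the genotypes for the second. The second passed on the values as deposited (limma, adjusted p = 0.0069). Without numbers 5 and 6, where 1527 of all 3439 probes passed, both did, in opposite directions. The first was then at -1.18 (limma, adjusted p = 0.029) and the second at 0.86 (0.040).

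The transcripts whose pattern over the 12 samples was most like that of each member were sought among the other 613 probes with a single gene that were above the floor in at least 7 samples. For AT1G29070 these were AT2G04540 (Pearson r = 0.96), AT1G28150 (0.95) and UBA1A (0.92). For AT3G54210 they were AT1G01080 (0.95), AT1G21500 (0.93) and AT5G56850 (0.92). For AT1G50000 they were AT2G28790 (0.96), AT1G11800 (0.95) and TPP2, tripeptidyl peptidase II (0.94). None of the members was among the 3 closest to another. The 12 points share their genotype and their couples, so these values describe likeness and are no test.

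Likeness among the members themselves was also taken within each genotype, and whether it differed between them was not tested. In pam48 AT1G29070 and AT3G54210 ran together (r = 0.89 over 6 samples), both with their highest values in numbers 5 and 6. In WT the same genes ran apart (r = -0.58 over 6 samples), since AT3G54210 was highest and AT1G29070 lowest in those numbers. AT1G29070 and AT1G50000 ran together in WT (r = 0.86) and not in pam48 (r = -0.44). AT3G54210 and AT1G50000 gave r = -0.58 in WT and r = -0.47 in pam48. With 3 couples behind each set of 6 samples, these values describe the couples and carry no test.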

How the data were processed

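The deposited table holds 1 intensity per probe and sample, on a linear scale from 0 to 100 as deposited by the authors. How these intensities were labelled, scanned, background corrected and scaled is not stated in the labels. Genotype and number came from the sample titles. Probes were named from the platform annotation, and loci were looked up by Entrez identifier in the gene table of TAIR10.1: 692 of 3439 probes had 1 gene, of which 690 matched a locus, 870 had several and 1877 were not listed. The members, lists and tests were chosen with earlier results of these data known.

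Intensities were quantile normalised, floored at each sample's 5th percentile of positive values and taken to log2. Genotypes were compared over all probes with limma 3.58.1 in R 4.3.3 (two-sided moderated test of pam48 minus WT, Benjamini-Hochberg adjustment, threshold 0.05). A check on simulated data drew each column independently, without couples. It therefore cannot show how the test behaves on columns that form couples. The number of samples limits the precision. Probes at the floor in all 12 samples numbered 42, and all 42 passed the test because the floors differ, so the count of 580 probes that passed holds 538 with a measured value. Named were the members, all list genes with a probe of their own, and the 3 likest genes per member. Other ribosomal protein genes were to be named by their description, and the gene table gave none beyond the lists. Deviations from the genotype mean correlated between WT and pam48 samples that share a number (r across probes 0.188 to 0.418 in all 6 cases). The same correlation was not computed for samples with different numbers, so these values cannot tell pairing by number from sharing within a couple. The numbers were taken to pair the samples only in the replicate block and the differences by couple, on no label. The main fit was unpaired. Alternatives were other scalings, other floors, samples left out, blocks and averaged couples. No coordinates or sequences of the probes were used here.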

Additional observations from a re-analysis of the deposited data

How the results depend on the processing

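The differences of AT1G29070, AT3G54210 and AT1G50000 stayed negative under all 26 alternatives. Most moved by less than the spread between samples, AT1G29070 without numbers 3 and 4 (-0.40 ± 0.42, SE) among them. The exceptions were AT1G29070 on the values as deposited (-0.26) and without numbers 5 and 6 (-1.93), and AT1G50000 on the values as deposited (-1.19) and with no floor and a pseudocount of 0.05 (-1.55). Leaving out each sample in turn gave -1.33 to -0.88 for AT1G29070, -1.24 to -0.84 for AT3G54210 and -2.39 to -2.02 for AT1G50000. AT5G65220 stayed at the floor in all 12 samples under each of the 5 scalings and floors tried. These kept the order of values around the floor within a sample or raised the floor. The outcome was thus fixed in advance and is no check.

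The count of 580 probes that passed limma's test depended most on which columns count as samples. It was 0 with consecutive numbers averaged (386 at an unadjusted p under 0.05), 8 with them as a random block and 3 with a replicate block on the averages, an alternative chosen after seeing the data. It was 441 with the replicate block alone. It was 10 without numbers 1 and 2, 11 without 3 and 4, 1527 without 5 and 6, and 158 to 678 when each sample was left out in turn, lowest without WT 3 or pam48 3. Cyclic loess gave 305, a common floor 377, no floor 363, and the values as deposited 1739 calls, of which 95.3% were higher in pam48 against 29.1% after quantile normalisation and 40.3% with cyclic loess. The cause was not tested.

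Of the 6 other probes of plastid translation 0 passed, and 0 when any sample was left out. On the values as deposited, where 1739 of all 3439 probes passed, 3 of the 6 did. Among them was AT4G01310, whose difference was then 0.54 (limma, adjusted p = 0.048) and so opposite in sign. AT1G64510 (0.59), AT3G13120 (0.47) and the first probe of AT2G25870 (0.29) also turned positive there without passing. Without numbers 5 and 6, where 1527 of all 3439 probes passed, the count was 4 (AT4G01310 and the first probe of AT2G25870 lower, AT5G10910 and the second probe of AT2G25870 higher). With the replicate block, where 441 of all probes passed, it was 1, AT5G10910 (limma, adjusted p = 0.022), which did not pass with that block on averaged couples (0.23). The replicate block alone ended or made no other call among these 6. Signal over background limits AT5G65220 in both genotypes and AT1G50000 in pam48.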
